A study of Mus musculus with 8 samples.

Results

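The nuclear-encoded subunits of the mitochondrial respiratory chain, complexes I to IV, were followed in sorted mammary gland cells of the mouse. The set holds 48 genes listed by name: 27 Nduf genes of complex I, 4 Sdh genes of complex II, 7 genes of complex III (the Uqcr genes and Cyc1) and 10 Cox genes of complex IV. Each gene was read from the probe set that mapped to it alone and had the highest mean signal over all arrays. Of the 48 genes, 46 had such a probe set, and all 46 passed the filter on low signal, among 13041 genes tested. Ndufs6 and Cox7b shared their probe sets with other symbols or had none assigned to them alone, and are not analysed here. No measured value was used to choose the genes.

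MMTV-iFGFR1 mice carry a fibroblast growth factor receptor 1 that can be switched on by a dimerizer drug. Its MMTV promoter, from a mouse mammary tumour virus, drives expression in mammary epithelium rather than in macrophages. Female transgenic mice and littermates lacking the transgene, inbred FVB and 6 weeks old, all received dimerizer, for 48 hours or for 4 weeks, so no group went without the drug. Glands were digested with collagenase and cells stained with a Cd11b antibody were sorted, and the RNA of 3 mice was pooled, amplified in 2 rounds and hybridised. The 4 groups, control and transgenic at 48 hours and at 4 weeks, had 2 pools each, giving 8 arrays. The description field of transgenic pool 2 at 4 weeks names non-transgenic donors, whereas its title, source and genotype fields say transgenic. It was kept as transgenic. For the members as a whole, the main counts or medians that use the 4-week transgenic pools are also given without it. Results at 4 weeks for single genes, single complexes and other gene lists are given with it only.

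The respiratory chain passes electrons from NADH, through complex I, and from succinate, through complex II, by way of ubiquinone to complex III, cytochrome c and finally complex IV, which reduces oxygen. Complexes I, III and IV pump protons, and ATP synthase uses the resulting gradient. In macrophages, reliance on this chain is a known feature of alternatively activated cells, while strongly inflammatory cells lean on glycolysis.

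The macrophage genes Csf1r and Adgre1 were well measured on every array, at signals of 68311 to 93065 and 9842 to 14627. Markers of other cells were measured too. The summed signal of 14 measured luminal epithelial markers, led by Wfdc18, Krt8 and Krt18, was 4845 to 4968 in control pools at 48 hours, 12943 to 13824 in transgenic pools at 48 hours, 10347 to 15361 in control pools at 4 weeks and 7650 to 12432 in transgenic pools at 4 weeks. For 12 neutrophil markers, led by Mmp9 and S100a8, the sums were 15883 to 17910, 10832 to 11300, 12670 to 24666 and 9296 to 9328 in the same order. Not every marker was well measured: Esrp1 was at 3.8 in control pool 2 and Camp at 5.5 in transgenic pool 2 at 48 hours. Such signals are not known to be above background. The ratio of 3' to 5' beta-actin signal, which grows as RNA is shortened, was 37.0 in control pool 2 at 4 weeks and 6.84 to 13.9 on the other 7 arrays.

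Because 42 of 46 members lay on the same side of the controls at 48 hours, as described below, their promoters were searched for short motifs of factors known to act on respiratory genes. Promoters of 38 members were in the RefSeq table (assembly GRCm38.p6, a window of fixed length around the start of transcription), and both strands were searched. The letters of nuclear respiratory factor 1 (NRF1), GCGCATGC (GCATGCGC on the other strand), occurred in 5 of 38 member genes, 13.2%, and in 3.05% of all 27025 genes of the table. Windows around 4 of these, upstream of the start and with the motif in capitals, are shown because their genes span complexes I, II and IV.
Ndufa8, complex I, chr2:36049339-36049372, minus strand: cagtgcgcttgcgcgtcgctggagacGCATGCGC
Ndufa6, complex I, chr15:82354341-82354400, minus strand: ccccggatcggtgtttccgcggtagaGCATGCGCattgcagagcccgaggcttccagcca
Sdhb, complex II, chr4:140961191-140961250, plus strand: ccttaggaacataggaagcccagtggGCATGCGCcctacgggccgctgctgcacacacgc
Cox6a1, complex IV, chr5:115349085-115349144, minus strand: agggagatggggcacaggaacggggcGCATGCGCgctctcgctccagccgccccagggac

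The YY1 letters AAGATGGC (GCCATCTT on the other strand) occurred in 7 of 38 member genes, 18.4%, and in 3.19% of all genes. All 7 were complex I genes, all matches ran in the direction of transcription, and each began 20 to 40 bases into the transcript, where 163 of the 927 matches of the whole table (17.6%) lie. That zone was chosen after the matches were seen. The windows are shown because the common placing of the motif, in capitals, is visible in them.
Ndufc1, chr3:51408915-51408944, minus strand: gcctgcggaacAAGATGGCgccgtccgtag
Ndufa9, chr6:126849097-126849126, minus strand: cattgtgggagAAGATGGCggccgccgtcc
Ndufa3, chr7:3617384-3617413, plus strand: ccgccaagaacAAGATGGCcgggagtaagt
Ndufs7, chr10:80249462-80249491, plus strand: aggccgaggccAAGATGGCggcgctggcgg
Ndufs4, chr13:114388045-114388070, minus strand: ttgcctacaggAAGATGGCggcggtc
Ndufb8, chr19:44555393-44555415, minus strand: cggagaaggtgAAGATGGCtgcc

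The remaining YY1 match was in Ndufs6. The GABP letters CCGGAAGT occurred in 3 of 38 member genes (7.89%, against 4.31% of all genes), the ERR letters TCAAGGTCA in 1 (2.63% against 0.466%), and the TATA letters TATAAA in 4 (10.5% against 15.7%). These matches describe letters in a window and not binding.

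The members were steady from array to array. The median of their standard deviations over the 8 arrays was 0.20 on the log2 scale, against 0.37 for all genes tested. In 40 of 46 members the highest array was less than 2-fold above the lowest, against 39.5% of all genes. Most members were far brighter than the array medians of 96.4 to 126.9, and they were not compared with genes of like signal. Cox6a1 was the steadiest, with 1.13-fold between its highest and lowest array, followed by Uqcrb at 1.18-fold. These ranges hold for the probe sets used: a second, dimmer Uqcrb probe set had signals of 883.2 to 1771. Wider ranges were those of Sdhd at 2.81-fold, Cox6c at 2.73-fold, Ndufv2 at 2.34-fold and Ndufs1 at 2.10-fold. Cox8a and Cox7c also spanned more than 2-fold, but their lowest signals, 68.2 and 79.0, lay below the median signal of their arrays and are not known to be above background.

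**Figure D1:**
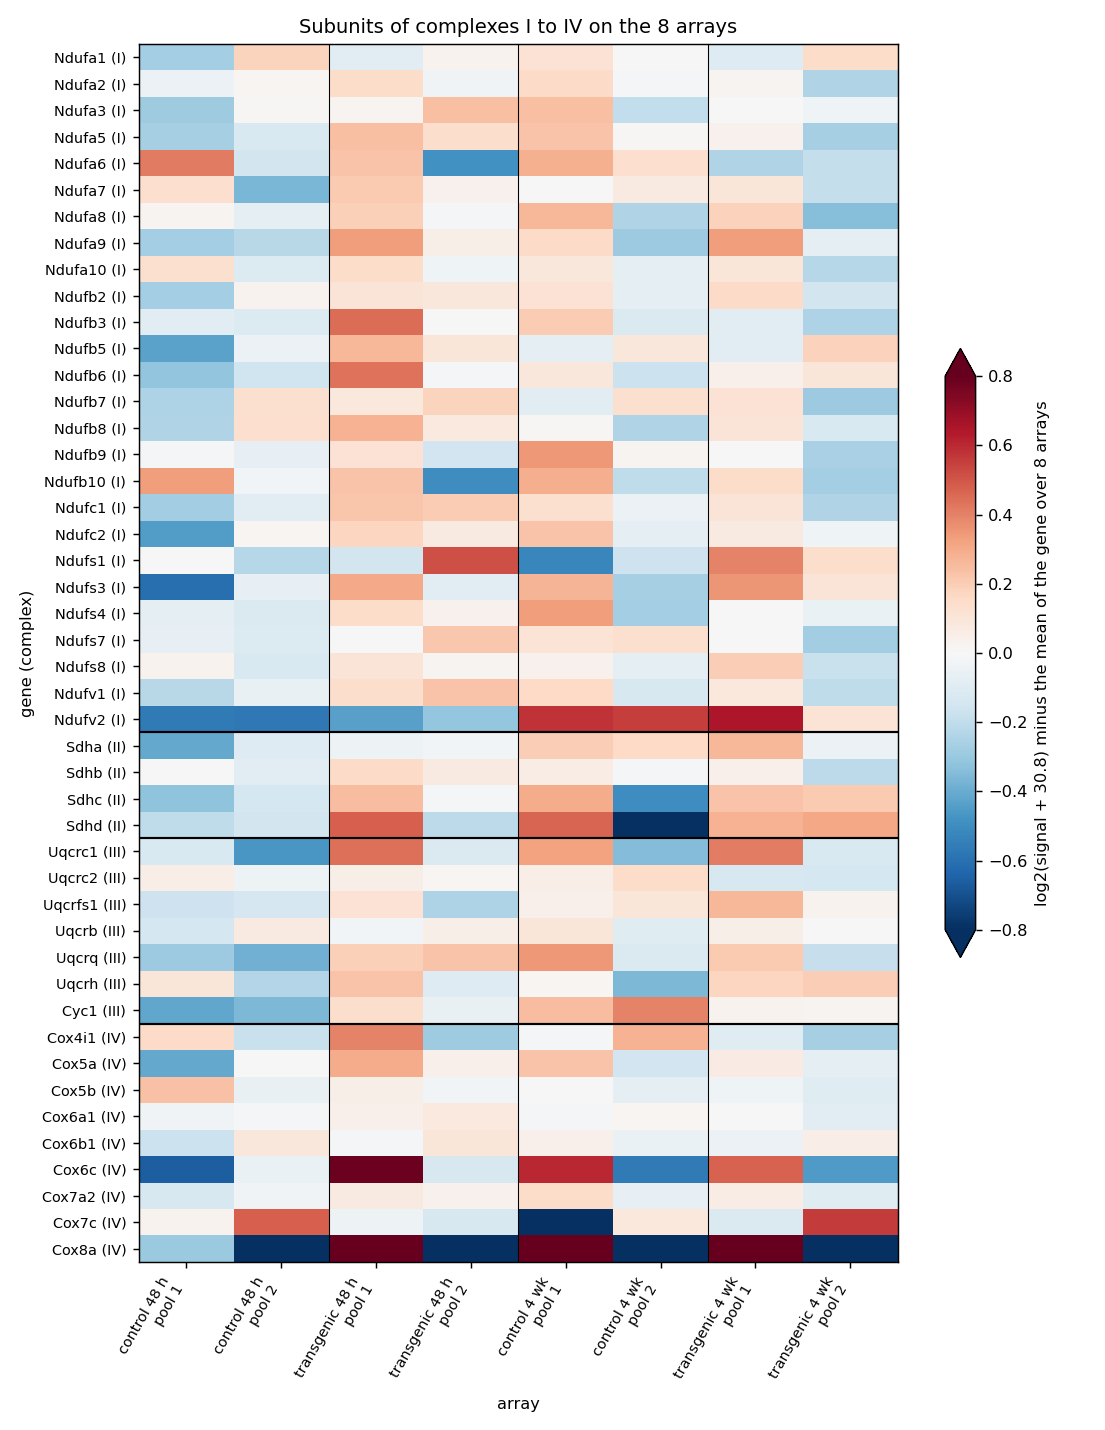
Level of each of the 46 subunits (rows, by complex) on each of the 8 arrays (columns), as log2(signal + 30.8) minus the mean of the gene. Most rows are pale; Cox8a, Cox6c, Cox7c, Sdhd and Ndufv2 carry the strongest colours, and control pool 1 at 48 hours has the lowest member median, -0.17.

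The first question was whether the chain differed between transgenic and control glands after 48 hours of dimerizer. The transgenic mean was above the control mean for 42 of 46 members, and their median log2 difference was 0.21, where 53.9% of all genes tested were higher and the median was 0.04. By complex, 24 of 26 members of complex I, 4 of 4 of complex II, 7 of 7 of complex III and 7 of 9 of complex IV were on that side, with medians of 0.22, 0.27, 0.13 and 0.08. In limma with Benjamini-Hochberg adjustment over all genes, 0 of 46 members passed 0.05, where 0% of all genes did, and 0 passed at an unadjusted p under 0.05, where 4.07% of all genes did. The smallest adjusted p of a member was 0.976. Both transgenic pools lay above both control pools for 22 members and below them for 1, Cox7c, where 18.9% and 16.1% of all genes did so. All members share the same 4 arrays, so their common direction is not 46 separate observations. In bulk RNA of sorted cells, fewer cells of a type and less RNA per cell cannot be told apart.

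The median centred level of the members, on each array, shows the size of the shift. It was -0.17 and -0.09 in control pools 1 and 2 at 48 hours, and 0.15 and 0.02 in transgenic pools 1 and 2. The 2 groups did not overlap, and the distance between the closest pools, -0.09 and 0.02, was of the size of the pooled standard deviation within groups, 0.12. Transgenic pool 1 stood highest: against the control pool of the same number the median difference was 0.26 in pool 1 (40 of 46 members higher) and 0.07 in pool 2 (32 of 46). The pool number was not taken as pairing, so this split only describes the arrays. Without transgenic pool 1 the median was 0.14 and 34 members were higher. The luminal marker sums above were also higher in both transgenic pools at this time, 9 of 14 measured markers lay above both control pools and 2 below, and the actin ratio was 6.84 and 11.4 in transgenic against 11.3 and 13.9 in control pools. Neutrophil markers were lower by their means for 8 of 11 tested, 5 of them below both control pools. Another 2, Lcn2 and Ltf, lay above both control pools. Dendritic cell markers were lower for 9 of 10 (median -0.40). Their sums were 5462 to 7616 in control and 4508 to 5930 in transgenic pools. Fibroblast markers, led by Dcn and Col3a1, were higher for 8 of 10 (median 0.32), and their sum was 38786 in control pool 1, the lowest of the 8 arrays, 85913 in control pool 2, and 72668 and 75538 in transgenic pools. The part of these in the result was not tested.

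**Figure D2:**
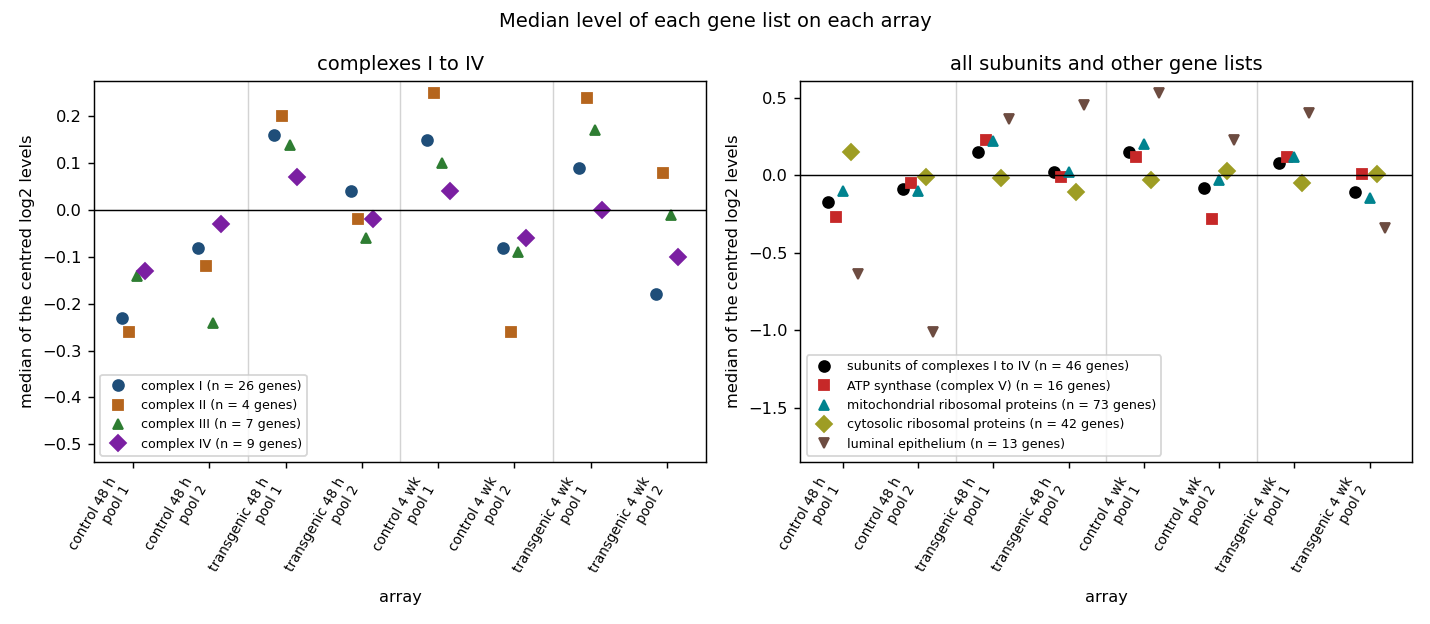
Median centred log2 level of gene lists on each of the 8 arrays: the 4 complexes on the left, all subunits with 4 other lists on the right. At 48 hours all 4 complexes were lower in control pool 1 (-0.13 to -0.26) than in transgenic pool 1 (0.07 to 0.20), and luminal markers are at -0.64 and -1.01 in the control pools and at 0.36 and 0.45 in the transgenic pools, while at 4 weeks the pools of the 2 genotypes overlap.

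Among the core subunits of complex I, which hold the flavin and iron-sulphur clusters, all 6 measured members were higher in transgenic pools at 48 hours, with log2 differences of 0.11 to 0.44. Signals are given below with pool 1 before pool 2. Ndufv1, which binds NADH and the flavin, had signals of 1956 and 2188 in control against 2520 and 2676 in transgenic pools at 48 hours, and of 2556 and 2083 against 2423 and 1974 at 4 weeks. Its groups were apart at 48 hours (log2 difference 0.32, SE 0.23, limma unadjusted p = 0.191) and overlapped at 4 weeks (-0.08, SE 0.23). Ndufs1, the largest iron-sulphur subunit, had 1110 and 941.0 in control against 997.9 and 1599 in transgenic pools at 48 hours, and 760.0 and 985.9 against 1469 and 1226 at 4 weeks. Here the groups overlapped at 48 hours and were apart at 4 weeks, at a log2 difference of 0.61 (SE 0.30, limma unadjusted p = 0.0638, adjusted p = 0.975), the smallest p of any member at that time.

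Ndufs7, which carries the last iron-sulphur cluster before ubiquinone, had 5835 and 5670 in control against 6105 and 7104 in transgenic pools at 48 hours. At 4 weeks it had 6616 and 6697 in control against 6141 and 5040 in transgenic pools, so that both transgenic pools lay above the controls early and below them late. The log2 differences were 0.19 and -0.26 (SE 0.20 each). A second Ndufs7 probe set had log2 differences of 0.41 and 0.13, with groups that overlapped at 4 weeks. The change of side was therefore seen with the used probe set only. Ndufs3, a core subunit without a cofactor, had differences of 0.44 and 0.23 (SE 0.30 each), and Ndufs8, another iron-sulphur subunit, of 0.11 and 0.03 (SE 0.20 each). All pools of Ndufs8 lay between 8314 and 10790.

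The supernumerary subunits of complex I surround the core and are needed to assemble it. Of 20 measured, 18 were higher in transgenic pools at 48 hours and 10 had both transgenic pools above both control pools, where 18.9% of all genes did. Ndufb6, of the membrane arm, had 3765 and 4206 in control against 6371 and 4638 in transgenic pools at 48 hours, and 5007 and 4161 against 4833 and 5022 at 4 weeks. Its log2 difference at 48 hours was 0.45 (SE 0.23, limma unadjusted p = 0.0750), with transgenic pool 1 above the other 3 pools. Ndufb5, also of the membrane arm, had 3670 and 4805 in control against 5965 and 5299 in transgenic pools at 48 hours, and 4725 and 5275 against 4664 and 5644 at 4 weeks. Its groups too were apart early (0.42, SE 0.22) and interleaved late (0.04, SE 0.22).

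Ndufc1, one of the genes with the AAGATGGC letters shown above, had 3671 and 4187 in control against 5208 and 5137 in transgenic pools at 48 hours, and 4890 and 4319 against 4794 and 3779 at 4 weeks. The 2 transgenic pools at 48 hours were its highest values, at a log2 difference of 0.40 (SE 0.21, limma unadjusted p = 0.0911). Ndufa9, which sits where the peripheral and membrane arms meet and has the same letters, had 2323 and 2413 in control against 3563 and 2906 in transgenic pools at 48 hours, and 3141 and 2294 against 3558 and 2663 at 4 weeks. Its log2 differences were 0.44 and 0.20 (SE 0.25 each), and pool 1 was above pool 2 in 3 of the 4 groups. The other measured genes with these letters had log2 differences at 48 hours of 0.27 for Ndufa3, 0.19 for Ndufs7, 0.18 for Ndufs4 and 0.23 for Ndufb8.

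Ndufa5, of the peripheral arm, had 2788 and 3078 in control against 3961 and 3704 in transgenic pools at 48 hours, and 3930 and 3369 against 3431 and 2785 at 4 weeks. The log2 differences were 0.38 and -0.23 (SE 0.22 each), with groups apart at the first time and overlapping at the second. Only 2 members of complex I had a lower mean in transgenic pools at 48 hours, Ndufa6 (-0.26, SE 0.29) and Ndufb10 (-0.29, SE 0.32). Ndufa6 had 2980 and 2017 in control against 2616 and 1584 in transgenic pools at 48 hours, and 2727 and 2451 against 1884 and 1953 at 4 weeks, where both transgenic pools were lower (-0.42, SE 0.29, limma unadjusted p = 0.175). In both genotypes at 48 hours pool 1 of this gene exceeded pool 2, by more than the genotypes differed. Ndufb9 was lower at 4 weeks as well, with 10414 and 8312 in control against 8188 and 6820 in transgenic pools (-0.32, SE 0.21, limma unadjusted p = 0.160). The remaining supernumerary members, Ndufa1, Ndufa2, Ndufa7, Ndufa8, Ndufa10, Ndufb2, Ndufb3, Ndufb7 and Ndufc2, had log2 differences of 0.02 to 0.34 at 48 hours and of -0.21 to -0.01 at 4 weeks.

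Complex II is also an enzyme of the citric acid cycle. Sdha, its flavoprotein, had 2952 and 3644 in control against 3812 and 3873 in transgenic pools at 48 hours, and 4503 and 4381 against 4717 and 3798 at 4 weeks. Sdhb, the iron-sulphur subunit, had 6349 and 5992 in control against 7074 and 6688 in transgenic pools at 48 hours, and 6645 and 6307 against 6556 and 5502 at 4 weeks. For both, the groups were apart at 48 hours (log2 differences 0.23 with SE 0.22, and 0.16 with SE 0.19) and overlapped at 4 weeks. Sdhc and Sdhd anchor the enzyme in the membrane. Sdhc had 569.6 and 650.5 in control against 862.5 and 714.9 in transgenic pools at 48 hours, and 891.3 and 502.2 against 849.3 and 840.0 at 4 weeks. Sdhd had 1184 and 1236 in control against 1919 and 1178 in transgenic pools at 48 hours, and 1901 and 682.8 against 1670 and 1704 at 4 weeks. On the used probe sets both anchors were lowest in control pool 2 at 4 weeks, the array with the actin ratio of 37.0. The 4-week differences were 0.32 (SE 0.31) for Sdhc and 0.55 (SE 0.42) for Sdhd. With these probe sets they were not seen without that pool: control pool 1 was above both transgenic pools for both genes. A second, dimmer Sdhc probe set had the same order, with 763.0 and 157.2 in control against 598.2 and 581.4 in transgenic pools. A second, dimmer Sdhd probe set did not, with 294.5 and 279.8 in control against 361.6 and 396.4 in transgenic pools (log2 difference 0.37).

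In complex III, Cyc1, the cytochrome c1 that hands electrons to cytochrome c, had 3144 and 3274 in control against 4636 and 4028 in transgenic pools at 48 hours, and 4991 and 5531 against 4275 and 4266 at 4 weeks. Control pools at 48 hours were the lowest of the 8 and control pools at 4 weeks the highest, with the transgenic pools between them at both times. The log2 difference between genotypes was 0.43 at 48 hours (SE 0.20, limma unadjusted p = 0.0586) and -0.30 at 4 weeks (SE 0.20, limma unadjusted p = 0.168). Cyc1 had a single probe set. Uqcrq, a small subunit of the same complex, had 1172 and 1097 in control against 1648 and 1689 in transgenic pools at 48 hours, and 1841 and 1328 against 1672 and 1266 at 4 weeks. Its groups were apart at 48 hours at a log2 difference of 0.55 (SE 0.26, limma unadjusted p = 0.0626), and overlapped at 4 weeks. The other Uqcrq probe sets were dim, with mean signals of 142.0, 121.2 and 100.1. They did not share 1 direction, with log2 differences at 48 hours of -1.98, -0.67 and 0.78 in that order.

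Uqcrc1, a core protein with the NRF1 letters, had 1388 and 1091 in control against 2070 and 1396 in transgenic pools at 48 hours, and 1901 and 1187 against 2025 and 1388 at 4 weeks. Pool 1 was above pool 2 in all 4 groups, and at 48 hours the lower transgenic pool was 1396 against 1388 in the higher control pool. Its log2 differences were 0.46 and 0.15 (SE 0.33 each). The other genes with the NRF1 letters had log2 differences at 48 hours of -0.26 for Ndufa6, 0.12 for Ndufa8, 0.16 for Sdhb and 0.08 for Cox6a1. The other core protein, Uqcrc2, differed by 0.02 at 48 hours and by -0.24 at 4 weeks (SE 0.18 each). At 4 weeks it had 6501 and 6926 in control against 5717 and 5658 in transgenic pools. A second Uqcrc2 probe set differed by 0.41 at 48 hours and by 0.20 at 4 weeks. Uqcrfs1, the Rieske iron-sulphur protein, had 3284 and 3349 in control against 3994 and 3098 in transgenic pools at 48 hours, and 3791 and 3934 against 4431 and 3761 at 4 weeks, with groups that overlapped both times. Uqcrh, the hinge protein, differed by 0.13 and 0.36 (SE 0.25 each) and was above both controls in both transgenic pools at 4 weeks, at 2502 and 2540 against 2234 and 1721. Uqcrb, another small subunit, differed by 0.05 and 0.02 (SE 0.16 each). Its second probe set differed by 0.54 at both times, with both transgenic pools above both control pools.

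Complex IV was the least uniform. Cox5a, a nuclear subunit next to the catalytic core, had 20792 and 27711 in control against 33890 and 28355 in transgenic pools at 48 hours, and 32363 and 24848 against 28907 and 26310 at 4 weeks. Its log2 difference at 48 hours was 0.37 (SE 0.21, limma unadjusted p = 0.105). The closest pools of the 2 genotypes were 27711 in control and 28355 in transgenic. Cox4i1, a subunit through which ATP inhibits the enzyme, had 20663 and 16440 in control against 24531 and 15307 in transgenic pools at 48 hours, and 18528 and 22590 against 17402 and 15509 at 4 weeks. Its groups overlapped at 48 hours (0.07, SE 0.24), and the transgenic pools were the lower ones at 4 weeks (-0.32, SE 0.24, limma unadjusted p = 0.221). Cox5b, Cox6a1, Cox6b1 and Cox7a2 had log2 differences between -0.08 and 0.13 at both times.

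The used probe sets of Cox6c and Cox8a varied widely between pools of one group. Cox6c, a small subunit, had 4053 and 6174 in control against 11078 and 5861 in transgenic pools at 48 hours, and 9750 and 4316 against 8912 and 4680 at 4 weeks. Cox8a, another small subunit, had 180.4 and 81.4 in control against 1342 and 68.2 in transgenic pools at 48 hours, and 577.7 and 115.6 against 622.4 and 78.5 at 4 weeks. Pool 1 was above pool 2 in 3 of the 4 groups for Cox6c and in all 4 for Cox8a, and genotypes overlapped at both times. A second Cox6c probe set had 5174, 6772, 7720 and 6681 at 48 hours and 7172, 5749, 6952 and 6570 at 4 weeks in the same order, with the same pools high and a smaller range. For Cox8a the second probe set instead had its highest values in control pool 1, at 715.8 at 48 hours and 766.8 at 4 weeks, and a log2 genotype difference of -1.36 at 48 hours where the first gave 1.26. The Cox8a direction therefore depends on the probe set.

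Cox7c was the only member below both control pools in both transgenic pools at 48 hours, at 174.0 and 249.2 in control against 164.5 and 153.0 in transgenic pools. At 4 weeks it had 79.0 and 181.5 in control against 154.3 and 264.8 in transgenic pools, which overlapped. Its log2 differences were -0.34 and 0.61 (SE 0.46 each). The median signal of all probe sets was 96.4 to 126.9 on the arrays, so the chosen probe set of Cox7c was near it.

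**Figure D3:**
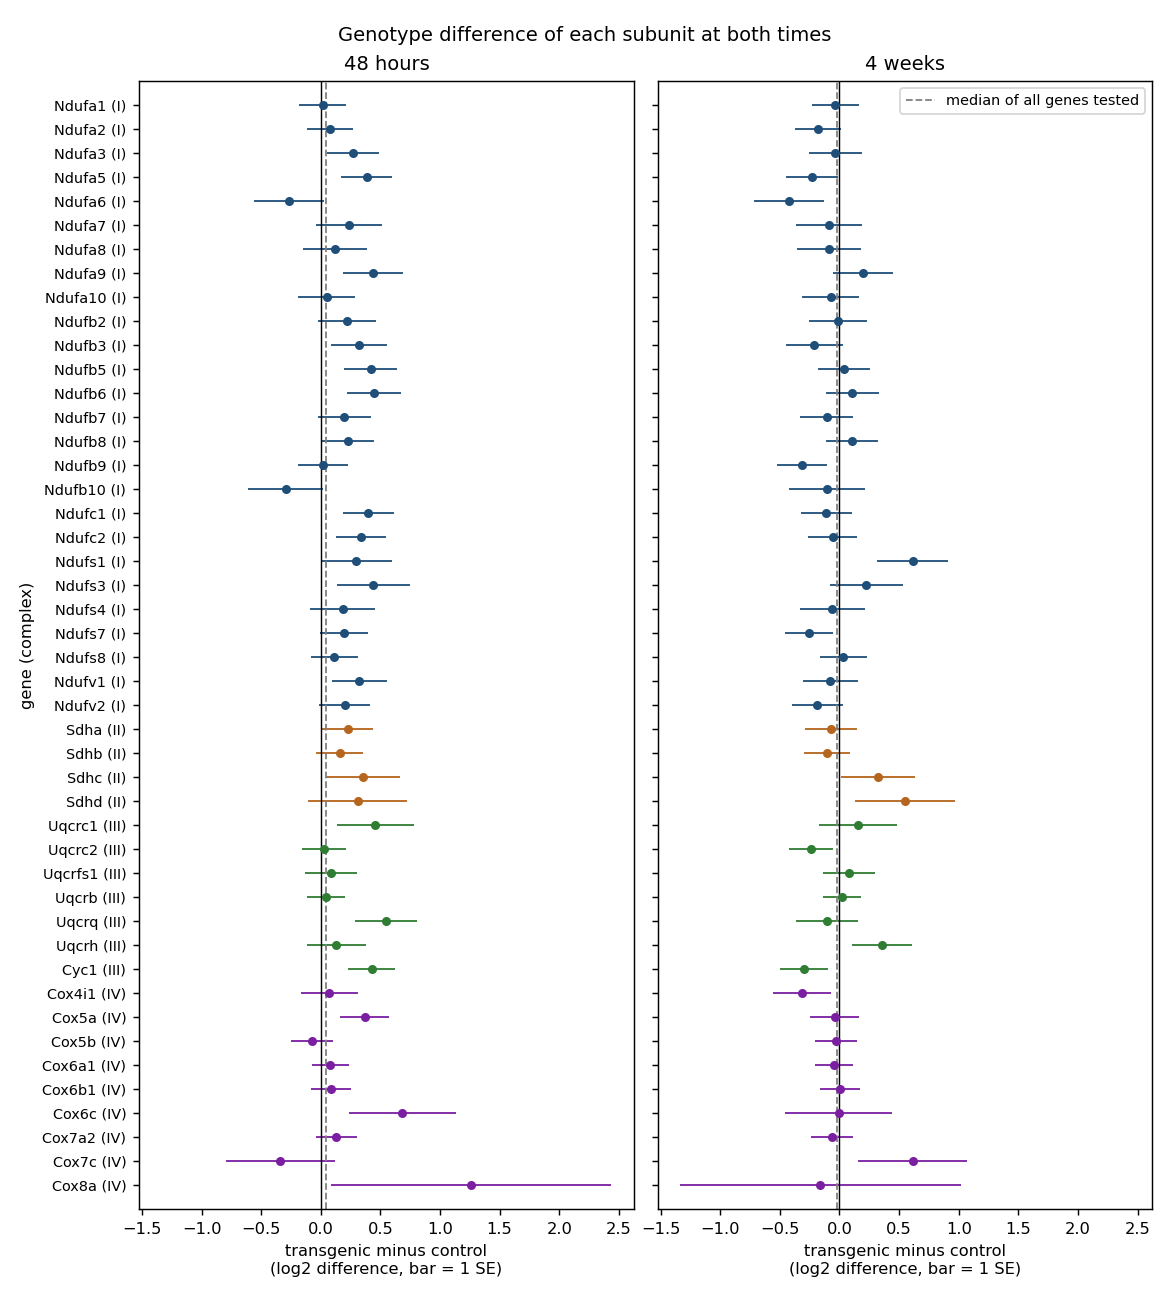
Transgenic minus control log2 difference of each of the 46 subunits at 48 hours (left) and 4 weeks (right), coloured by complex, with bars of 1 SE from limma and a dashed line at the median of all genes tested (0.04 and -0.02). At 48 hours 42 of 46 points lie above 0, at 4 weeks 15 of 46, and the widest bars are those of Cox8a.

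After 4 weeks of dimerizer the common direction of the early time was not seen. Transgenic means were higher for 15 of 46 members and lower for 31, the median log2 difference was -0.06, and 48.0% of all genes were higher with a median of -0.02. Complex I had 7 of 26 members higher, complex II 2 of 4, complex III 4 of 7 and complex IV 2 of 9, with medians of -0.07, 0.13, 0.02 and -0.04. In limma 0 of 46 members passed 0.05 after adjustment, where 0% of all genes did, and 0 passed at an unadjusted p under 0.05, where 5.08% of all genes did. Both transgenic pools were above both control pools for 2 members, Ndufs1 and Uqcrh, where 14.7% of all genes were. Both were below for 6, where 17.2% of all genes were: Ndufa6, Ndufb9, Ndufs7, Uqcrc2, Cyc1 and Cox4i1. With the second probe sets of Uqcrh, Ndufb9, Ndufs7 and Uqcrc2 the genotypes overlapped at 4 weeks. The median centred levels of the members, 0.15 and -0.08 in control against 0.08 and -0.11 in transgenic pools, overlapped.

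The direction at 4 weeks rested on single pools. Without transgenic pool 2, whose labels conflict, 31 members were higher and the median was 0.07. Without control pool 1 they were 29 and 0.06. Without control pool 2, which had the high actin ratio, 6 members were higher and the median was -0.17, and without transgenic pool 1 the values were 10 and -0.16. The early count ranged from 34 to 42 when any one of the 8 pools was left out. At 4 weeks neutrophil markers were lower in transgenic pools for all 11 members tested, and their part in the result was not tested.

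The difference between the 2 genotype differences was tested with a limma interaction term. It was negative for 40 of 46 members, with a median of -0.26 against -0.06 over all genes, and 0 members passed after adjustment, where 0% of all genes did. At an unadjusted p under 0.05, where 4.74% of all genes passed, Cyc1 was the 1 member of 46 that did, at -0.72 (SE 0.28, limma unadjusted p = 0.0282, adjusted p = 0.988), and Ndufa5 came next at -0.62 (SE 0.31, limma unadjusted p = 0.0722). Without control pool 1 at 4 weeks the median was -0.12, and without transgenic pool 2 at 4 weeks -0.13. The interaction uses all 8 arrays and so shares them with the 2 comparisons it is made of.

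The 2 time comparisons share arrays with the genotype comparisons. Every group received dimerizer, so time on the drug cannot be told apart from other differences between the times, such as any in age at collection. The member medians of the control pools at 48 hours (-0.17 and -0.09) reached into the range of the 4-week pools (-0.11 to 0.15), so no group lay apart from all others. In control pools 38 of 46 members had a higher mean at 4 weeks than at 48 hours (median 0.14, all genes 0.05), and in transgenic pools 12 did (median -0.11, all genes -0.01). In control pools, both late pools were above both early ones for 10 members and below for 0, where 18.0% and 13.8% of all genes were. In transgenic pools 1 member was above and 11 were below, where 14.1% and 14.5% of all genes were. No member passed limma after adjustment in control pools, where 0.00767% of all genes did, or in transgenic pools, where 0% did. Cyc1 had a log2 difference of 0.71 in control pools (SE 0.20, limma unadjusted p = 0.00530, adjusted p = 0.586) and of -0.02 in transgenic pools (SE 0.20). Without control pool 1 at 4 weeks, 25 members were higher in control pools and the median was 0.01. In transgenic pools, leaving out pool 2 at 4 weeks, whose labels conflict, gave 21 members higher at 4 weeks and a median of -0.02. At 48 hours the control pools also had the lowest luminal marker sums of the series, and the part of these cells in the result was not tested.

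Ndufv2, an iron-sulphur subunit beside the NADH site, was the member that separated the times. Its brightest probe set had 6292 and 6269 in control against 6917 and 7528 in transgenic pools at 48 hours, and 13929 and 13701 against 14642 and 10083 at 4 weeks. All 4 late pools were above all 4 early ones, with log2 differences of 1.13 in control (SE 0.21, limma unadjusted p = 0.000304, adjusted p = 0.335) and 0.75 in transgenic pools (SE 0.21, limma unadjusted p = 0.00526, adjusted p = 1.00). Over both genotypes, a comparison added after this pattern was seen, it was 0.94 (SE 0.15, limma unadjusted p = 8.4e-05, adjusted p = 0.547), and again 0 members and 0% of all genes passed. The other 2 probe sets of Ndufv2 did not share the pattern. In the same order, the second had 5212, 5475, 7124 and 6287 at 48 hours and 6393, 5440, 6241 and 4717 at 4 weeks, and the third 1427, 1422, 1955 and 1885, then 2074, 1278, 1947 and 1392. Their time differences over both genotypes were -0.08 and -0.01. The first carries the array maker's suffix _x_at, given to probe sets with probes that can match other transcripts, and the second has the suffix _a_at, given where one gene's transcripts are all matched. At 48 hours all 3 probe sets were higher in transgenic pools, by 0.20, 0.32 and 0.42.

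**Figure D4:**
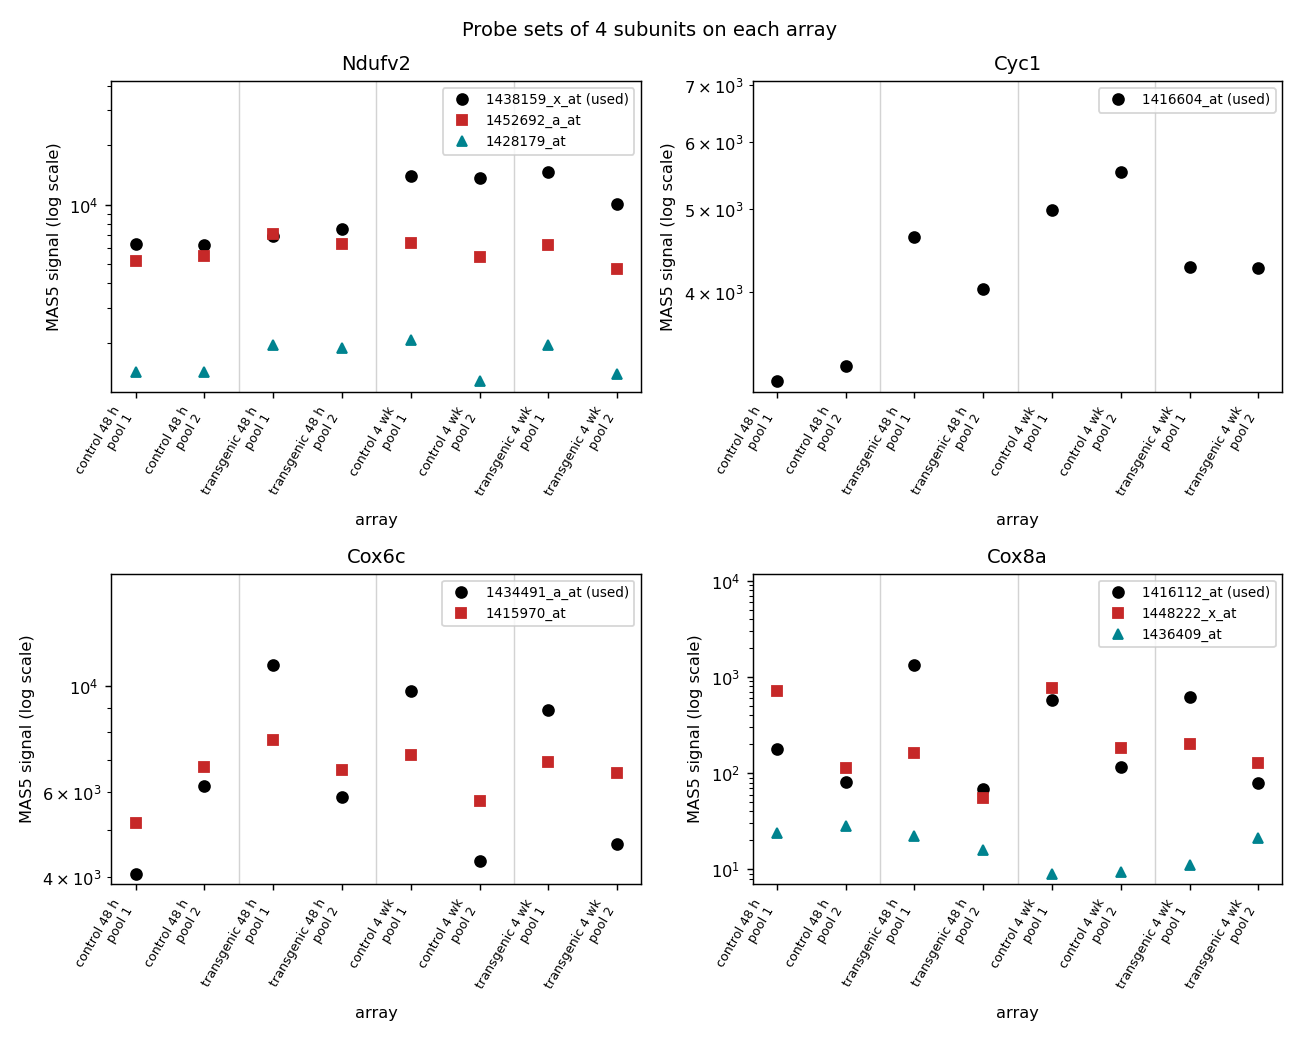
MAS5 signal of every probe set of Ndufv2, Cyc1, Cox6c and Cox8a on each of the 8 arrays, on a log axis, with the probe set used in black. The used Ndufv2 probe set lies at 6269 to 7528 at 48 hours and 10083 to 14642 at 4 weeks while its other 2 probe sets show no such step; the used probe set is higher in pool 1 than in pool 2 in 3 of the 4 groups for Cox6c and in all 4 for Cox8a.

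The same question was asked of the other probe sets. The members had 104 probe sets in all, up to 6 per gene, and 14 members had 1. Of the 58 not used, 51 passed the filter, for 31 genes. At 48 hours 41 of these 51 were higher in transgenic pools and 39 had the same sign as the probe set used, with a median of 0.21 against 0.23 for the probe sets used for those genes. At 4 weeks 28 of 51 were higher, 25 had the same sign, and the median was 0.04 against -0.06.

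Several other mitochondrial lists had most genes on the same side at 48 hours, and others did not. ATP synthase subunits were higher in transgenic pools at 48 hours for 16 of 16 tested (median 0.24), citric acid cycle enzymes for 14 of 17 (0.35), mitochondrial ribosomal proteins for 62 of 73 (0.20), complex I subunits outside the 48 genes for 8 of 8 (0.18) and assembly factors of complexes I to IV for 25 of 35 (0.09). Of complex III and IV genes outside the 48, 2 of 4 were higher (median 0.10), as were 2 of 4 tissue isoforms of complex I and IV subunits (-0.05), and ND5, the one mitochondrially encoded subunit tested, was at -0.23. Cytosolic ribosomal proteins were on the opposite side, with 6 of 42 higher (median -0.13), and glycolysis genes had 14 of 22 higher (0.12). At 4 weeks the counts were 9 of 16 for ATP synthase, 12 of 17 for the citric acid cycle, 27 of 73 for mitochondrial ribosomal proteins, 22 of 42 for cytosolic ribosomal proteins and 19 of 22 for glycolysis (median 0.18). No gene of these lists passed limma after adjustment at either time. The smallest unadjusted p of citric acid cycle genes at 48 hours was that of Idh3a, a catalytic subunit of isocitrate dehydrogenase, at a log2 difference of 0.75 (SE 0.30).

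**Figure D5:**
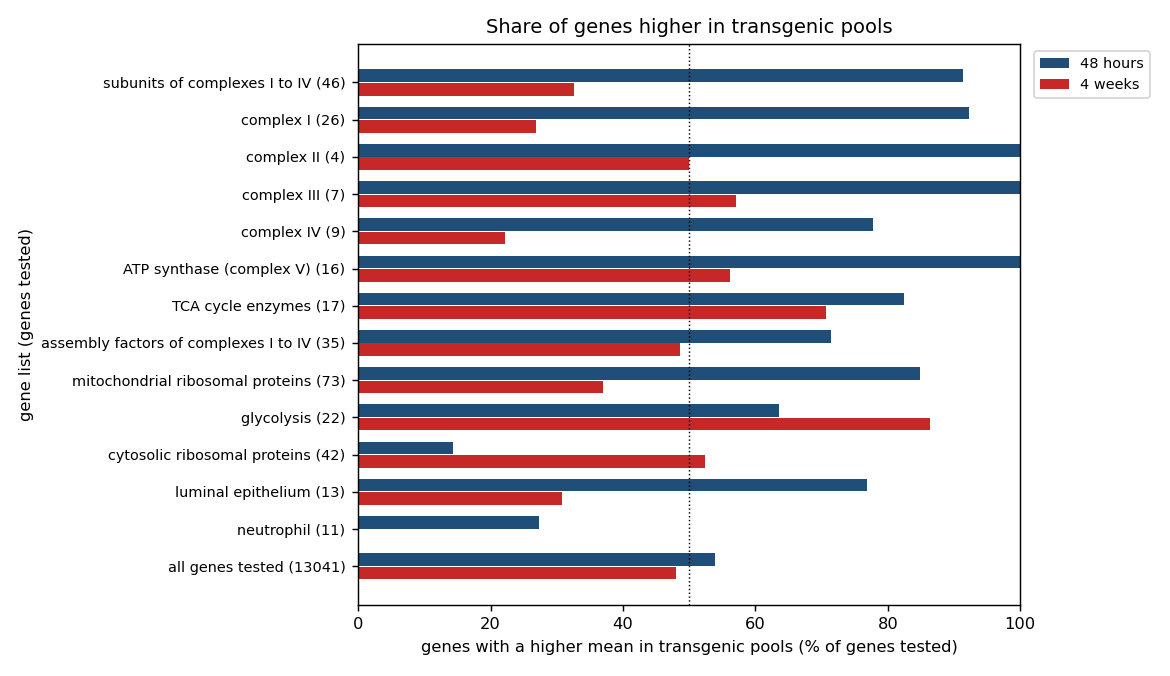
Share of genes with a higher mean in transgenic than in control pools, at 48 hours (blue) and 4 weeks (red), for the subunits, each complex and other gene lists, with the number of genes tested in brackets. At 48 hours the subunits reach 91.3% and ATP synthase 100% against 53.9% of all genes, and cytosolic ribosomal proteins 14.3%; at 4 weeks the subunits are at 32.6% against 48.0%.

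Of 16 genes known to regulate respiratory gene expression, 10 were higher in transgenic pools at 48 hours (median 0.14) and 5 at 4 weeks (-0.23). Nrf1, whose letters were searched above, had log2 differences of -0.07 and -0.30 (SE 0.31 each), Yy1 of 0.11 and 0.34 (SE 0.28 each), and Gabpa, the DNA-binding part of GABP, of 0.18 and 0.54 (SE 0.30 each). Esrra, the orphan receptor ERR alpha, was at 0.16 and -0.16 (SE 0.40 each). The coactivator gene Ppargc1a was at -0.39 and -0.69 (SE 0.70 each), and its relative Ppargc1b at -0.27 and -0.53 (SE 0.28 each). Tfam, which packages and transcribes mitochondrial DNA, was at 0.27 and 0.29 (SE 0.32 each). The lowest value of the list was that of Foxo1, a transcription factor restrained by growth factor signals, at -0.56 and -1.01 (SE 0.30 each).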

How the data were processed

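Per the submitters' processing notes, MAS5, of no stated version, gave the deposited signal intensity of each probe set. There were 45101 probe sets on each array, and the mean without the lowest and highest 2% was 500 on all 8. The files give no detection calls, so dim signals could not be told from background. For arrays, their number limits the precision. The 34945 probe sets with 1 gene symbol in the platform annotation were used, the one with the highest mean signal per gene. Signals were turned into log2(signal + 30.8), the added value being the 25th percentile of all signals, so differences of dim genes are understated. Genes above their array's median on at least 2 arrays were kept, 13041 in all. They were fitted with limma 3.58.1 in R 4.3.3 (eBayes with trend), with a mean for each of 4 groups and 4 residual degrees of freedom, and two-sided p-values were adjusted by Benjamini-Hochberg over all genes. Figures were drawn with matplotlib 3.10.9. The script was tested on simulated data. The labels do not say whether pools of a group shared mice, so p-values measure only the spread between pools.

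The members, gene lists, motifs and tests were chosen with earlier results of these data known. Signals in every array are given for the members with the smallest p of each complex and for catalytic subunits, except some left out for length, and for others singled out after their values were seen. Alternatives were quantile normalization, centring on the median gene, an offset of 108.1 or none, a low-signal filter at the 75th percentile or none, the mean of all probe sets, no _s_at or _x_at probe sets, no trend, the pool number as a block, the actin ratio as a covariate, the arrays of one time alone, and leaving out each pool. The time comparison over both genotypes was added after seeing the data.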

Additional observations from a re-analysis of the deposited data

Results flagged for a closer look

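With the probe sets used, Cyc1 and Ndufs7 lay on opposite sides of the controls at the 2 times in both transgenic pools. Cyc1 was above both control pools at 48 hours and below both at 4 weeks, and its genotype difference at 4 weeks minus that at 48 hours was -0.72 on the log2 scale. Ndufs7 did the same, with -0.45. The second probe set of Ndufs7 did not, with log2 differences of 0.41 at 48 hours and 0.13 at 4 weeks. In the limma interaction test neither gene passed after adjustment over all genes (adjusted p = 0.988 for both). Of all genes tested, 18.9% were above both control pools at 48 hours and 17.2% were below both at 4 weeks. The share of all genes that did both was not counted, so the change of side is not known to be unusual.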

How the results depend on the processing

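With 2 pools per group, only large differences can pass the adjusted threshold, and 0 members did under any alternative run. At 48 hours, the alternatives gave 34 to 42 members higher in transgenic pools, with medians of 0.14 to 0.23, and at 4 weeks 6 to 31 members, with medians of -0.18 to 0.07. Single members changed sign in 37 of 917 alternative values at 48 hours and in 78 of 917 at 4 weeks. The number of all genes passing at 48 hours was 1 with the arrays of one time and 0 to 1 with each pool left out. At 4 weeks it was 2 with the pool number as a block, 1 with the arrays of one time and 0 to 1 with each pool left out, and the member median was -0.18 with the actin ratio as a covariate and -0.17 to 0.07 with each pool left out. For the interaction these ranges were 0 to 1 genes and medians of -0.36 to -0.12. For time in control pools, where 1 gene passed, the count was 0 with the filter at the 75th percentile, with the mean of all probe sets and with no trend, 4 with the block, 7 with the actin covariate and 0 to 7 with each pool left out, where the median ranged from 0.01 to 0.23. Leaving out each pool gave 0 to 1 genes for time in transgenic pools, 0 to 3 for genotype over both times and 0 to 1 for time over both genotypes, where the block gave 1. The causes were not tested. Deviations of pools of the same number correlated weakly over all genes, at 0.116 to 0.133 between the 3 groups other than control at 48 hours and at -0.085 to 0.023 with that group. Since not every pair of groups was above 0.1, the number was not taken as pairing. For Ndufv2 in control pools the time difference of 1.13 was 0.49 with the mean of its probe sets and 0.14 without _s_at and _x_at probe sets.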
